A study of Mus musculus with 6 samples.

Results

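The insulin-like growth factor (IGF) system was followed through 10 genes: the ligands Igf1 and Igf2, the receptor Igf1r, the binding proteins Igfbp2 to Igfbp7, and the protease gene Pappa. They were found by the symbol in the platform annotation, and every probe set with exactly 1 symbol equal to a member was used. This gave 29 probe sets for the 10 genes, out of 18193 genes with such a probe set on the array. For each gene the probe set that was brightest on average over the 6 arrays, called its standing probe set, was used unless stated.

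RNA came from whole ovaries of 8-month-old female mice, and both ovaries were pooled. The wild-type (WT) and FORKO groups were bred from heterozygotes of the 129T2 svEmsJ background, and FORKO mice lack all variants of the follicle-stimulating hormone (FSH) receptor throughout the body. Each of 3 WT and 3 FORKO samples, labelled biological replicates, was run on a separate Affymetrix Mouse Genome 430 2.0 array. The labels do not say how many mice each sample came from, so p-values measure only the spread between these samples. The free-text fields of the FORKO samples speak of wild-type mice, while their titles and genotype fields say FORKO, and the groups follow the titles.

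IGF1 and IGF2 are secreted growth factors that signal mainly through the tyrosine kinase IGF1R and from there through PI3-kinase and AKT. In extracellular fluid they are held by IGF binding proteins, which can limit their access to the receptor, and proteases such as PAPP-A release them by cutting the binding protein. In the mouse ovary Igf1 is known as a granulosa cell product of growing follicles that acts together with FSH, and binding proteins such as Igfbp4 and Igfbp5 are known from follicles that degenerate. The comparison asked how this system differs in ovaries that cannot respond to FSH.

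No IGF gene passed the test at an adjusted p of 0.05 in the main fit, which has no replicate block. Point estimates ran from -0.77 for Pappa to 1.04 for Igfbp5 on the log2 scale. Igfbp6 had the lowest adjusted p and read 2.09-fold higher in FORKO ovaries by the ratio of means. It passed with the replicate number as a block (limma adjusted p = 0.0350) and with bacterial spike scaling (limma adjusted p = 0.0463). Igf1, Igf1r, Igf2, Igfbp3, Igfbp5 and Igfbp6 had positive estimates, and Igfbp2, Igfbp4, Igfbp7 and Pappa negative ones. The sign for Igfbp7 turned with bacterial spike scaling and without FORKO replicate 1. Signals are array intensities scaled to 1 trimmed mean, and log2 changes subtract WT from FORKO values of log2(signal + 5.74), which understates changes of dim probe sets.

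All 10 standing probe sets were bright enough to be tested, and so were 23 of the 29 probe sets. limma called 0 of 10 members, against 2.13% of the 11199 genes tested. At an unadjusted p under 0.05 there were 5 of 10 members, Igf1, Igfbp4, Igfbp5, Igfbp6 and Pappa, against 16.9% of all genes tested. The 3 WT and 3 FORKO arrays did not overlap for 4 of 10 members, Igf1r and Igfbp6 (higher in FORKO) and Igfbp4 and Pappa (lower), against 22.5% of all genes tested. The median change was 0.27 over the members and -0.02 over all genes tested. For a single gene the exact two-sided permutation test of 3 against 3 arrays cannot give less than 0.1, and it gave 0.1 for those 4 members.

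**Figure D1:**
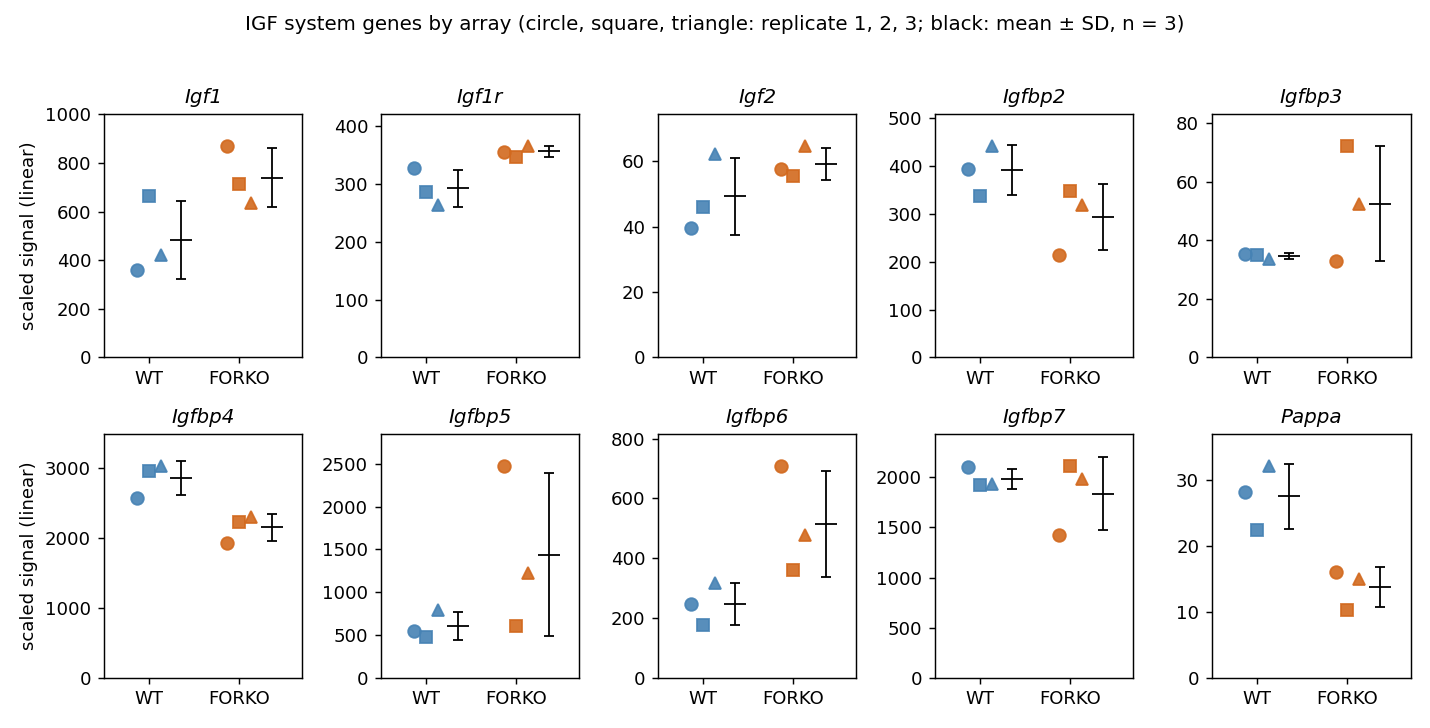
Scaled signal (linear axis from 0) of the standing probe set of each of the 10 IGF genes on the 3 WT (blue) and 3 FORKO (orange) arrays, with the mean ± SD in black. Igf1r, Igfbp4, Igfbp6 and Pappa are the genes whose groups do not overlap. FORKO replicate 1 (orange circle) is the highest array for Igf1, Igfbp5 and Igfbp6 and the lowest for Igfbp2, Igfbp3, Igfbp4 and Igfbp7.

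The targeted gene and the tissue were checked first. Fshr, the FSH receptor of granulosa cells, read 92.6 ± 30.3 in WT ovaries and 8.04 ± 5.93 in those of FORKO mice (SD, n = 3 each; limma adjusted p = 0.00998), lower on 3 of 3 FORKO arrays. Where its probes lie relative to the deletion is not known here. Log2 signals correlated at 0.966 to 0.969 between WT arrays and at 0.976 between FORKO replicates 2 and 3, but at 0.934 and 0.936 between FORKO replicate 1 and these. FORKO replicate 1 therefore stood apart from its group, and many of the results below are also given without it. The ovary's own markers were present: the summed signal of 7 oocyte genes was 779 to 934 in WT and 318 to 518 in FORKO. The sum of 5 theca and interstitial genes was 13693 to 14238 and 10784 to 11563. Its brightest genes, Hsd3b1 and Cyp11a1, had negative changes, as did Star. The changes of Cyp17a1 (0.58) and Ptch1 (0.12) were positive, and Cyp17a1 read 2477 in FORKO replicate 1 against 173 to 1183 in WT. The sum of 11 granulosa genes was 14372 to 18776 in WT, 7677 in FORKO replicate 1 but 17972 and 18735 in the other FORKO arrays. Amh was listed at 0.8 to 1.2 on all arrays. The granulosa genes did not move together in FORKO replicate 1. Inha, Inhba, Inhbb, Fst, Hsd17b1, Nr5a2 and Esr2 lay below all WT arrays there, but Foxl2 (850), Amhr2 (2841) and Kitl (1494) lay above them all. For 5 luteal genes the sum was 1293 to 1621 in WT, against 415, 4124 and 4070 in FORKO replicates 1 to 3. Sfrp4, a secreted Wnt antagonist, led the sum in FORKO replicates 2 and 3, at 3516 and 3295. It read 583 to 891 in WT and 28.9 in FORKO replicate 1. The changes of 4 of the 5 genes were negative, and the median of the 5 was -0.51. Sfrp4 was among the 4 at -0.05 (limma adjusted p = 0.991). Its change was 2.15 without FORKO replicate 1 (limma adjusted p = 3.9e-05), a fit in which 4.80% of genes tested were called. In bulk tissue, fewer cells of a type and less RNA per cell cannot be told apart.

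Of the ligands, Igf1 read higher in FORKO ovaries, with groups that overlapped. Its standing probe set (1434413_at) read 361, 665 and 422 on the WT arrays and 871, 713 and 635 on the FORKO arrays. WT replicate 2 lay above FORKO replicate 3, and the other WT arrays lay below all FORKO arrays. The log2 difference was 0.65 ± 0.23 (SE; 95% interval 0.13 to 1.17; limma adjusted p = 0.232), and it was 0.52 without FORKO replicate 1. Igf1 has 3 further probe sets, all past the filter on dim signals and all with a positive estimate. Of these, 1419519_at read 131, 255 and 181 in WT and 359, 287 and 334 in FORKO, and 1437401_at read 249, 426 and 500 in WT and 539, 561 and 706 in FORKO. Neither pair of groups overlapped, the log2 changes were 0.82 and 0.66, and limma's adjusted p was 0.137 and 0.257. The dimmest, 1452014_a_at, had groups that overlapped and a change of 0.32 (limma adjusted p = 0.517).

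Igf2, the fetal growth factor that is imprinted and read from the paternal allele, gave low signals in these adult ovaries. Its standing probe set (1448152_at) read 39.6, 46.0 and 62.3 in WT and 57.6, 55.4 and 64.8 in FORKO. The groups overlapped through WT replicate 3, and the change of 0.26 had an interval from -0.21 to 0.73 (limma adjusted p = 0.642). Leaving out WT replicate 1 gave 0.13, and leaving out WT replicate 3 gave 0.42. The other probe set, 1415931_at, read 2.92 to 6.62 in WT and 4.26 to 8.13 in FORKO and was too dim to be tested.

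The receptor gene Igf1r read higher in FORKO on every probe set past the filter. The standing probe set (1428967_at) read 327, 286 and 265 in WT and 356, 347 and 366 in FORKO. The FORKO arrays lay within a narrow band above all WT arrays, and the change was 0.29 ± 0.16 (SE; 95% interval -0.06 to 0.63; limma adjusted p = 0.452). The second probe set, 1452982_at, read 212, 181 and 226 in WT and 310, 369 and 382 in FORKO. Its means were 206 ± 23.0 and 354 ± 38.6 (SD, n = 3 each), and every FORKO array lay above every WT array. The log2 difference was 0.76 ± 0.17 (SE; limma adjusted p = 0.0620), with an adjusted p of 0.0405 with the replicate number as a block and 0.0187 without FORKO replicate 1. Among the 23 tested probe sets of the system this one had the lowest adjusted p, and it was singled out after its values were seen. The dimmer 1446303_at and 1426565_at also had groups that did not overlap, with changes of 0.39 and 0.37 (limma adjusted p = 0.422 and 0.460). The fifth probe set, 1452108_at, read 14.0 to 19.2 in WT and 7.65 to 16.0 in FORKO, the opposite direction, below the filter.

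**Figure D2:**
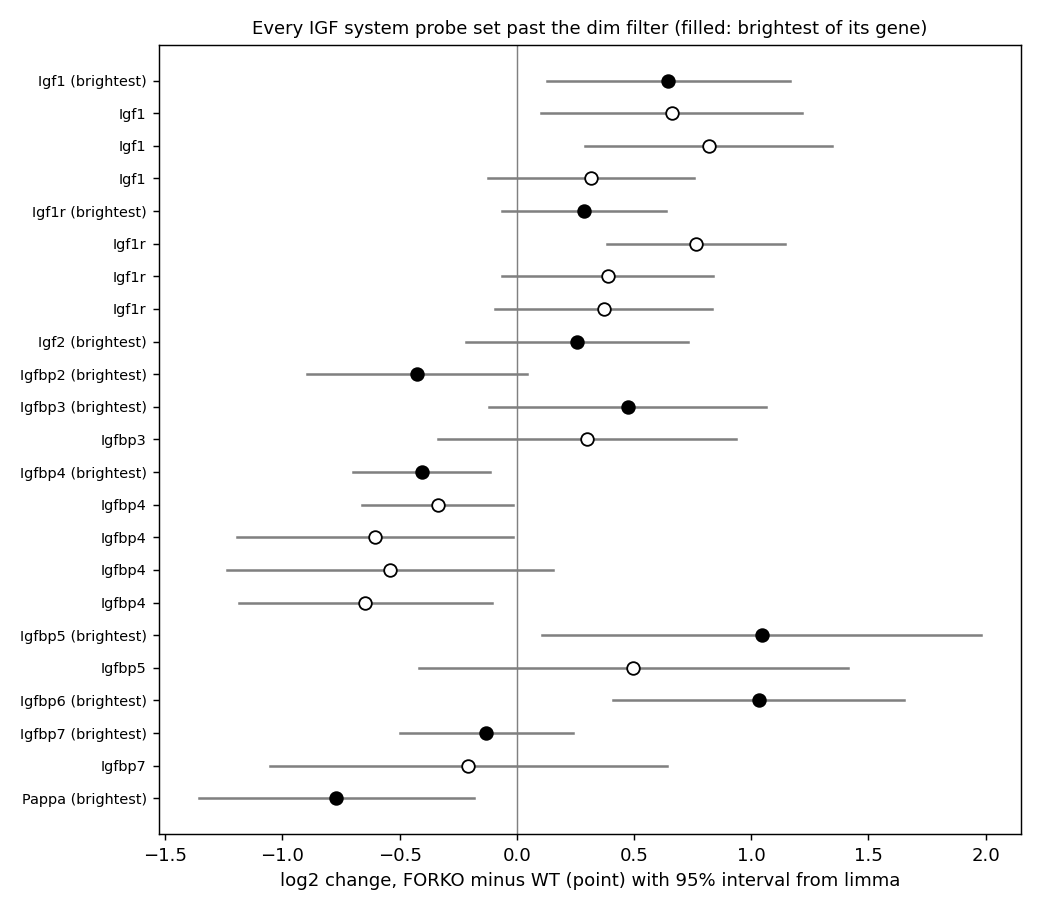
Log2 change (FORKO minus WT) with limma's 95% interval for each of the 23 IGF probe sets past the dim filter, ordered by gene, filled points marking the brightest probe set of a gene. All 4 Igf1 and 4 Igf1r probe sets lie right of 0 and all 5 Igfbp4 probe sets lie left of it.

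Among the binding proteins, Igfbp6 and Igfbp5 read higher in FORKO ovaries and Igfbp4 and Igfbp2 lower. Igfbp6, a binding protein that prefers IGF2 over IGF1, has 1 probe set (1417933_at), which read 246, 176 and 316 in WT and 708, 359 and 476 in FORKO. Every FORKO array lay above every WT array, and FORKO replicate 1 was the highest. The means were 246 ± 69.8 and 515 ± 178 (SD, n = 3 each), and the log2 difference was 1.03 ± 0.28 (SE; 95% interval 0.41 to 1.65; limma adjusted p = 0.110). With the replicate number as a block its adjusted p was 0.0350, where 3.96% of genes tested were called. That it was higher in FORKO in 3 of 3 same-numbered pairs follows from the lack of overlap and adds nothing to it. Without FORKO replicate 1 the change was 0.78 (limma adjusted p = 0.101), and over all alternatives the adjusted p ran from 0.035 to 0.366.

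Igfbp5, the most conserved of the IGF binding proteins and one that also binds extracellular matrix, had the widest spread. Its standing probe set (1452114_s_at) read 549, 478 and 790 in WT and 2475, 608 and 1226 in FORKO. FORKO replicate 1 lay far above all others and replicate 2 lay inside the WT range. The log2 difference was 1.04 ± 0.42 (SE; 95% interval 0.11 to 1.98; limma adjusted p = 0.285), and it was 0.54 without FORKO replicate 1 (limma adjusted p = 0.364). The dimmer 1422313_a_at read 17.3, 18.6 and 24.6 in WT and 65.5, 27.0 and 14.7 in FORKO, and its change was 0.50 with all arrays and 0.01 without FORKO replicate 1. Across the 6 arrays the log2 signals of Igfbp5 and Igfbp6 had a Pearson correlation of 0.93, and both share the high reading of FORKO replicate 1.

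Surface epithelium and macrophage markers were read on the same arrays as Igfbp5 and Igfbp6. All 8 surface epithelium genes had a positive change. limma called 2 of the 8, the keratin genes Krt8 and Krt18 (adjusted p = 0.0154 and 0.0319), against 2.13% of all genes tested. The summed signal of the 8 was 710 to 773 in WT, against 2091, 1256 and 1372 in FORKO replicates 1 to 3. Without FORKO replicate 1 the median change of the 8 went from 0.91 to 0.53, and only that of Msln was negative (-0.16). All 7 macrophage genes past the filter (of 8) had a positive change and 0 passed limma's test. At an unadjusted p under 0.05 by limma there were 2 of the 7, against 16.9% of all genes tested. Cd14 passed with the replicate block (limma adjusted p = 0.0988 without it and 0.0306 with it). Without FORKO replicate 1 the median change of the 7 went from 0.51 to 0.05, and those of Cd68 (-0.056) and Lyz2 (-0.037) were negative. The macrophage sum was 2201 to 2504 in WT and 4741, 2146 and 2803 in FORKO. Itgam, a defining macrophage gene, was below the filter at 0.455 to 6.31 on all arrays, and the part of these cells in the readings of Igfbp5 and Igfbp6 was not tested.

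Igfbp4, which holds IGFs in follicles and is the main substrate of PAPP-A, had a lower mean in FORKO on all 6 of its probe sets. The dimmest of them, 1421991_a_at, read 0.984 to 7.13 over the arrays and was below the filter. The standing probe set (1437406_x_at) read 2572, 2950 and 3026 in WT and 1929, 2224 and 2294 in FORKO. Every FORKO array lay below every WT array, with means of 2849 ± 243 and 2149 ± 194 (SD, n = 3 each). The log2 difference was -0.41 ± 0.13 (SE; 95% interval -0.70 to -0.11; limma adjusted p = 0.184). It was -0.33 without FORKO replicate 1 (limma adjusted p = 0.282). The suffix _x_at marks a probe set that may share probes with other sequences, and the 4 further probe sets past the filter had changes of -0.34, -0.61, -0.54 and -0.65. One of these, 1423756_s_at, read 987, 1508 and 1977 in WT and 702, 1017 and 1160 in FORKO, with groups that overlapped. In each same-numbered pair FORKO was lower, and its limma adjusted p was 0.327 without the replicate block and 0.0428 with it. The probe set 1421992_a_at read 83.4, 123 and 159 in WT and 62.2, 79.6 and 79.2 in FORKO, without overlap (limma adjusted p = 0.253). The groups overlapped on 1437405_a_at and 1423757_x_at.

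Igfbp2, a binding protein that also acts apart from IGFs, has 1 probe set (1454159_a_at). It read 392, 337 and 442 in WT and 215, 346 and 319 in FORKO. FORKO replicate 1 was the lowest array and replicate 2 lay above WT replicate 2. The log2 difference was -0.43 ± 0.21 (SE; 95% interval -0.89 to 0.04; limma adjusted p = 0.391), and it was -0.22 without FORKO replicate 1.

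Igfbp3, the main carrier of IGFs in blood, was dim and near constant in WT. Its standing probe set (1423062_at) read 35.4, 34.9 and 33.5 in WT and 33.0, 72.2 and 52.2 in FORKO. FORKO replicate 1 lay just under the WT arrays, and the other 2 FORKO arrays lay above them. The change was 0.47 ± 0.26 (SE; limma adjusted p = 0.461) and 0.74 without FORKO replicate 1 (limma adjusted p = 0.115). Without FORKO replicate 2 it was 0.23 (limma adjusted p = 0.800). The second probe set, 1458268_s_at, read 15.0 to 23.1 in WT and 17.5, 33.8 and 22.5 in FORKO (change 0.30, limma adjusted p = 0.699), again with replicate 2 highest.

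Igfbp7, a matrix-associated relative that binds IGFs weakly and is known from blood vessels, read 2102, 1923 and 1933 in WT and 1422, 2114 and 1981 in FORKO on its standing probe set (1423584_at). FORKO replicate 1 was the lowest, and replicate 2 exceeded all WT arrays. The change was -0.13 (95% interval -0.50 to 0.24; limma adjusted p = 0.790), and it was 0.045 without FORKO replicate 1 and 0.045 with bacterial spike scaling. The dimmer 1423585_at read 29.3, 30.1 and 40.7 in WT and 11.6, 40.1 and 41.9 in FORKO, with replicate 1 again the lowest. The summed signal of 7 endothelial genes was 496 to 553 in WT, against 783, 707 and 670 in FORKO replicates 1 to 3. In FORKO replicate 1 the excess lay in Vwf, for von Willebrand factor, at 387 against 89.5 to 133 in WT, while Cdh5 (18.8) and Emcn (12.4) were below all WT arrays there. The adjusted p of Vwf was 0.118 by limma without the replicate block and 0.0326 with it. Its change was 1.07 with all arrays and 0.72 without FORKO replicate 1. Pecam1, a defining gene of that list, was below the filter at 1.96 to 16.8, and the part of vessels in the Igfbp7 readings was not tested.

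**Figure D3:**
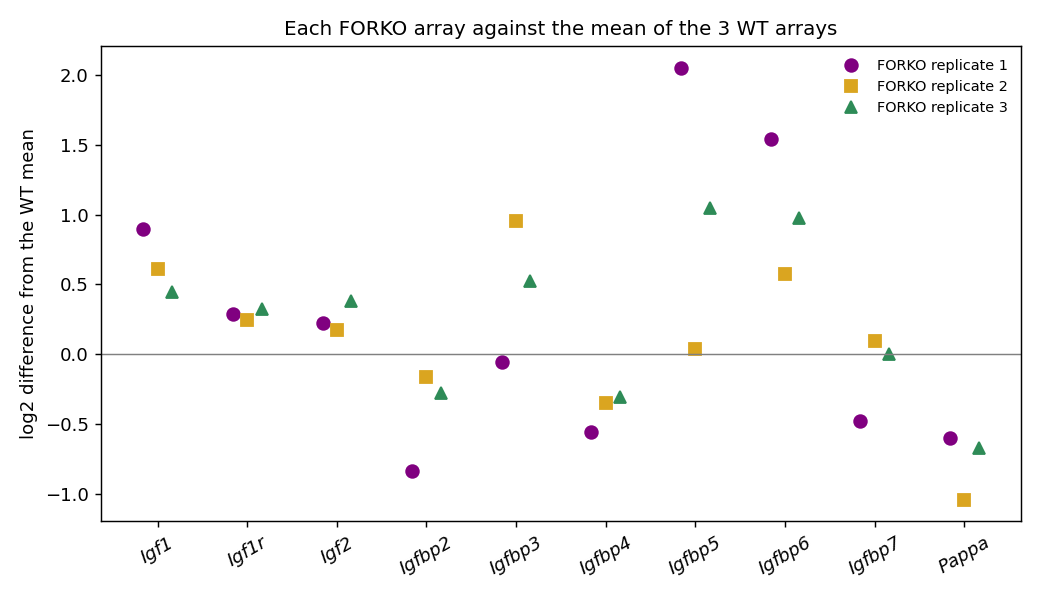
Log2 signal of each FORKO array minus the mean log2 signal of the 3 WT arrays, for the standing probe set of each IGF gene. Of these 3 arrays, FORKO replicate 1 is highest for Igf1, Igfbp5 (2.05), Igfbp6 (1.54) and Pappa (-0.60). It is lowest for Igfbp2 (-0.84), Igfbp3, Igfbp4 and Igfbp7, while the 3 arrays lie close together for Igf1r and Igf2.

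Pappa, which encodes the metalloproteinase PAPP-A that cuts IGFBP4 and so frees IGFs in follicles, read lower in FORKO ovaries. The standing probe set (1432591_at) read 28.1, 22.3 and 32.1 in WT and 16.1, 10.3 and 15.0 in FORKO. Every FORKO array lay below every WT array, with means of 27.5 ± 4.91 and 13.8 ± 3.08 (SD, n = 3 each). The log2 difference was -0.77 ± 0.26 (SE; 95% interval -1.36 to -0.18; limma adjusted p = 0.209), and it was -0.86 without FORKO replicate 1. With a mean of 20.7 this probe set lay just above the filter at 20.4, so its values are near the dim end of the table. The probe set 1427633_a_at read 21.8, 17.1 and 19.5 in WT and 18.0, 2.82 and 0.951 in FORKO and was not tested. There FORKO replicate 1 lay within the WT range and the other 2 FORKO arrays below it. The third, 1432592_at, read 0.835 to 3.0 on all 6 arrays.

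The arrays that were high for one IGF gene were not high for all. Over the 10 members, the median difference from the WT mean was 0.08, 0.13 and 0.35 in FORKO replicates 1, 2 and 3, with members above and below the WT mean in each array. Igfbp5 and Igfbp7, with a Pearson correlation of -0.84 over the 6 arrays, and Igf1r and Igfbp4, with -0.90, ran in opposite directions. Igfbp2 and Igfbp7, at 0.84, ran together. These are descriptions over 6 arrays that share the difference between the groups and the readings of FORKO replicate 1.

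The genes of most like pattern were taken for Igfbp6, the member with the lowest adjusted p. Over the 6 arrays they were Alox5ap, which encodes the 5-lipoxygenase activating protein of leukotriene synthesis (Pearson r = 0.996), Gimap1, a GTPase gene of lymphocytes (0.994), and Stard8 (0.993). In all, 124 of 11189 genes correlated with Igfbp6 above 0.95. Alox5ap read 122, 92.6 and 151 in WT and 246, 153 and 189 in FORKO, the same order of arrays as Igfbp6. Stard8 read 91.4 ± 24.7 in WT and 217 ± 79.5 in FORKO (SD, n = 3 each; limma adjusted p = 0.0926).

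Of 47 further genes of the pathway, 43 had a probe set of 1 symbol and 36 were bright enough to be tested. limma called 0 of the 36, against 2.13% of all genes tested, and 4 had an unadjusted p under 0.05, against 16.9%. Their median change was 0.05, with 20 positive and 16 negative. The groups did not overlap for 5 of them, Stc2, Ctsd, Socs2, Pik3r2 and Akt2, against 22.5% of all genes tested.

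Outside the cell, 7 of 11 receptors, binding proteins and protease genes were tested. Stc2 encodes stanniocalcin 2, an inhibitor of PAPP-A. It read 57.2, 77.3 and 47.2 in WT and 214, 132 and 90.7 in FORKO, with every FORKO array above every WT array. The change was 1.13 ± 0.30 (SE; limma adjusted p = 0.106), and it was 0.82 without FORKO replicate 1 (limma adjusted p = 0.0953). With bacterial spike scaling Stc2 passed limma's test. Stc1, for stanniocalcin 1, which also inhibits PAPP-A, read 178, 165 and 265 in WT and 4.92, 151 and 179 in FORKO. FORKO replicate 1 alone was far below the rest, and the change was -1.60 with it and -0.26 without it (limma adjusted p = 0.455 and 0.626). Htra1, a secreted serine protease that can cut binding proteins, was also lowest in that array. It read 1023 in FORKO replicate 1 but 3616 and 4522 in the other FORKO arrays, against 2699 ± 529 (SD, n = 3) in WT. Its change was -0.06 with all arrays and 0.60 without FORKO replicate 1 (limma adjusted p = 0.973 and 0.0962). The mannose 6-phosphate receptor gene Igf2r, which clears IGF2, read 150, 222 and 134 in WT and 77.5, 136 and 100.3 in FORKO. Its change was -0.66 (limma adjusted p = 0.265), and -0.47 without FORKO replicate 1 (limma adjusted p = 0.361). Its groups overlapped by FORKO replicate 2, which lay between WT replicates 1 and 3. Ctsd, the lysosomal protease cathepsin D, read 886 ± 75.7 in WT and 1196 ± 114 in FORKO (SD, n = 3 each; limma adjusted p = 0.200). Igfbp1, Igfals, Igfbpl1 and Insrr were below the filter, and Igfbp1 read 0.328 to 7.82 over the 6 arrays.

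In the growth hormone axis all 6 genes were tested. Socs2, a feedback inhibitor of growth hormone signalling, read 1087, 736 and 853 in WT and 276, 456 and 553 in FORKO. Every FORKO array lay below every WT array, and the change was -1.09 ± 0.26 (SE; limma adjusted p = 0.0740). Its adjusted p was 0.0349 without FORKO replicate 1, where 4.80% of genes tested were called, and it also passed with scaling to 1 common median. Ghr, the growth hormone receptor gene, read 443 ± 83.3 and 443 ± 90.2 (SD, n = 3 each), with an interval of the log2 change from -0.45 to 0.44. Stat5b had the second largest change of this group, -0.23 (limma adjusted p = 0.638).

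Of 26 genes of the intracellular cascade 22 were tested, and their changes were small, between -0.49 and 0.41. The adaptor gene Grb14, an inhibitor of insulin receptor signalling, had the change of largest size among them. It read 1595, 1544 and 1564 in WT and 591, 1508 and 1557 in FORKO, so that its change of -0.49 was -0.03 without FORKO replicate 1. Grb10, its imprinted relative, read 363 ± 60.3 in WT and 272 ± 92.3 in FORKO (SD, n = 3 each; change -0.46, limma adjusted p = 0.478), and its change was -0.15 without FORKO replicate 1. Foxo1, a transcription factor that AKT shuts out of the nucleus, read 729, 529 and 657 in WT and 283, 1022 and 1183 in FORKO. Replicate 1 lay below and replicates 2 and 3 above all WT arrays, and without replicate 1 its change was 0.79 (limma adjusted p = 0.0259), against 0.15 with it. FORKO replicate 1 was also the lowest array for the summed granulosa genes given above, though Foxl2, Amhr2 and Kitl of that list were above all WT arrays there. The part of granulosa cells in the readings of Stc1, Htra1, Grb14 and Foxo1 was not tested. Of the Igf2 mRNA-binding protein genes, Igf2bp3 was tested and read 43.7 ± 23.8 in WT and 50.8 ± 21.8 in FORKO, while Igf2bp1 was below the filter at 1.64 to 12.9.

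**Figure D4:**
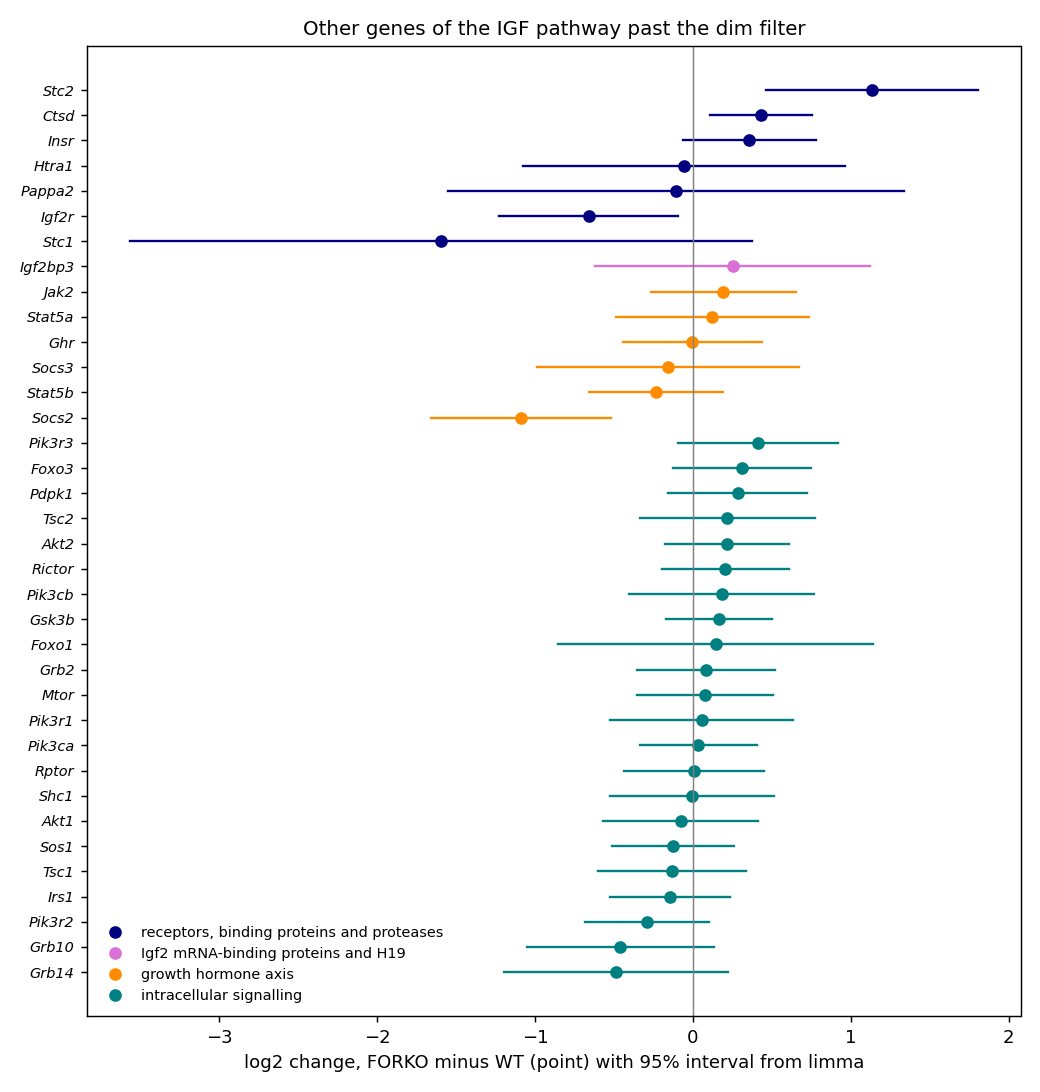
Log2 change (FORKO minus WT) with limma's 95% interval for the 36 tested further genes of the IGF pathway, coloured by role. Stc2 (1.13) lies farthest to the right and Stc1 (-1.60) farthest to the left with the widest interval, and the intervals of 4 genes (Stc2, Ctsd, Igf2r and Socs2) do not reach 0.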

How the data were processed

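Per the submitters' processing notes, the deposited values are MAS5 signals, 1 intensity on a linear scale per probe set and array. Of the software version, scaling target, masking and detection calls, nothing is given in the sources used here. Trimmed means ran from 80.3 to 97.8 per array and medians from 17.7 to 23.5, and precision is limited by the number of arrays. Arrays were brought to 1 common mean, computed without the lowest and highest 2% of signals (factors of 0.897 to 1.09), and log2(signal + 5.74) was taken, the pseudocount being the pooled 25th percentile. Of 45101 probe sets, 64 controls were left out, and the 22506 with a mean scaled signal of at least 20.4, the median, were kept. The test was limma 3.58.1 in R 4.3.3 (eBayes with an intensity trend, two-sided), with Benjamini-Hochberg adjustment over all of them at 0.05, without a replicate block. The fit was tested on simulated data. Figures were drawn with matplotlib 3.10.9.

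Deviations from the group means correlated at 0.196, 0.134 and 0.358 between same-numbered arrays, all above 0.1. A fit with the replicate number as a block was therefore added, from these data and not from the labels, while the main fit ignores the numbers. What same-numbered samples share is not stated. There are few ways to match 3 arrays to 3, so these correlations are weak evidence of pairing. The blocked value is printed where it changed the call of a gene named in the text. The genes to name were all 10 members, and in each group of further genes those that passed or else the 2 largest changes. Genes of like pattern were the 3 most correlated with the member of lowest adjusted p. Htra1, Igf2r, Ctsd, Ghr, Foxo1, Igfbp1, Igf2bp1, single marker genes and single further probe sets were added after their values were seen. The members, lists and tests were chosen with earlier results of these data known. Alternatives covered normalization, pseudocount, dim filter, variance model, block, each array left out, and the probe sets standing for a gene.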

Additional observations from a re-analysis of the deposited data

How the results depend on the processing

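Members were counted by their standing probe sets, or by what an alternative put in their place. So counted, no member passed limma's test in 18 of 20 alternatives. Outside these counts, the second Igf1r probe set (1452982_at) passed with the replicate block (limma adjusted p = 0.0405) and without FORKO replicate 1 (limma adjusted p = 0.0187). The Igfbp4 probe set 1423756_s_at passed with the block (limma adjusted p = 0.0428). The count of members past the threshold was 1 (Igfbp6) with the replicate block and 1 (Igfbp6, adjusted p = 0.0463) with bacterial spike scaling. Spike scaling moved the median of all genes from -0.02 to 0.14, and the members' median from 0.27 to 0.46, and Pappa fell under the dim filter there. The count of further pathway genes past the threshold was 1 with bacterial spike scaling (Stc2), 1 with arrays scaled to the same median (Socs2), and 0 to 2 with 1 array left out. The 2 were Socs2 and Foxo1, without FORKO replicate 1. By standing probe sets the count of members was 0 in each of the 6 fits with 1 array left out. There 3 to 5 members had an unadjusted p under 0.05 by limma. In these fits limma called 46 to 538 genes of 11199. The estimate for Igfbp7 changed sign with spike scaling (0.045) and without FORKO replicate 1 (-0.24 to 0.045 over the 6 fits with 1 array left out), and no other member changed sign in any alternative. The replicate block changed no call among the standing probe sets of the 10 members other than that of Igfbp6, and none among the 36 further pathway genes. The cause of these changes was not tested. Dim signals limit what can be said of Igf2, Igfbp3 and Pappa, of which only the standing probe set, or for Igfbp3 also a second one, was bright enough to be tested.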

Other observations

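In the order of the RefSeq gene table for GRCm38.p6, Igfbp2 and Igfbp5 lie next to each other among protein-coding genes, and their standing probe sets had changes of -0.43 and 1.04. Igfbp3 lies next to Igfbp1, which was below the dim filter, and Igf2 next to Ins2, also below it. Of the protein-coding neighbours with a probe set of 1 symbol, counting each side of each member, 18 were found and 11 were tested. Of the 11, limma called 0, against 2.13% of all genes tested. Igfbp2 and Igfbp5, members themselves, are among the 11 as neighbours of each other. Synm, a neighbour of Igf1r that encodes the intermediate filament protein synemin, had a change of -1.49 (limma adjusted p = 0.0559, and 0.0154 without FORKO replicate 1), opposite in sign to Igf1r. Top2a, a topoisomerase gene of dividing cells next to Igfbp4, had a change of -0.85 (limma adjusted p = 0.264), and -0.45 without FORKO replicate 1 (limma adjusted p = 0.324). Both were chosen after their values were seen.

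Markers of fat and liver, known sources of Igf1 in the body, were mostly below the dim filter, with 1 of 6 tested in each list. Of the fat cell genes Fabp4 was tested, and Adipoq, below the filter, read 12.6 to 13.7 in WT and 0.984, 1.18 and 2.85 in FORKO. The liver gene Alb, for albumin, read 8.34 to 14.7 in WT and was below the filter. The summed signal of 4 fat cell genes was 141 to 166 in WT and 130 to 234 in FORKO, and that of 5 liver genes 188 to 270 in WT and 65.2 to 357 in FORKO, with Apoa1 the only one tested. The summed signal of 5 oviduct genes was 38.9 to 66.7 in WT, against 94.0, 316 and 251 in FORKO replicates 1 to 3. Ovgp1 led the sum in replicates 2 and 3, at 247 and 184, but read 27.2 in FORKO replicate 1, within its WT range of 12.7 to 34.4, where Wfdc2 led at 52.1. The part of oviduct tissue in the IGF gene readings was not tested.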
